A study of Mus musculus with 55 samples.

Results

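The comparison set mice of at least 28 g against mice under 18 g in a panel of Collaborative Cross mice, recombinant inbred lines bred from 8 founder strains. By the body weight label 17 of the 55 mice belonged to a side, 7 heavy and 10 light, and the mice came from 11 of the 29 lines. All mice were naive males, kept on chow and water without restriction, and polyadenylated RNA of the liver had been sequenced once per mouse. Each line entered a side with the mean over its mice of that side, so that 5 heavy lines were set against 6 light lines.

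The heavy side held IL-2156 with 1 mouse of 38.0 g at 10.0 weeks of age, IL-2680 with 1 mouse of 28.3 g at 11.9 weeks and IL-2750 with 1 mouse of 30.1 g at 8.1 weeks. It also held 2 mice of IL-4457, of 35.0 and 30.7 g at 8.6 weeks, and 2 mice of IL-611, of 28.4 and 29.5 g at 10.1 weeks. The light side held IL-1061 with 1 mouse of 17.7 g at 8.3 weeks, IL-2126 with 1 mouse of 17.8 g at 10.9 weeks and IL-4032 with 1 mouse of 14.8 g at 8.4 weeks. The other light lines were IL-1513 with 2 mice of 16.0 and 17.8 g at 8.1 weeks, IL-3575 with 2 mice of 17.3 and 17.9 g at 9.0 weeks, and IL-785 with 3 mice of 15.8, 15.4 and 12.8 g at 8.1 to 9.0 weeks. The mice nearest to the limits weighed 28.3 g inside and 27.7 g outside on the heavy side, and 17.9 g inside and 18.1 g outside on the light side.

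**Figure D1:**
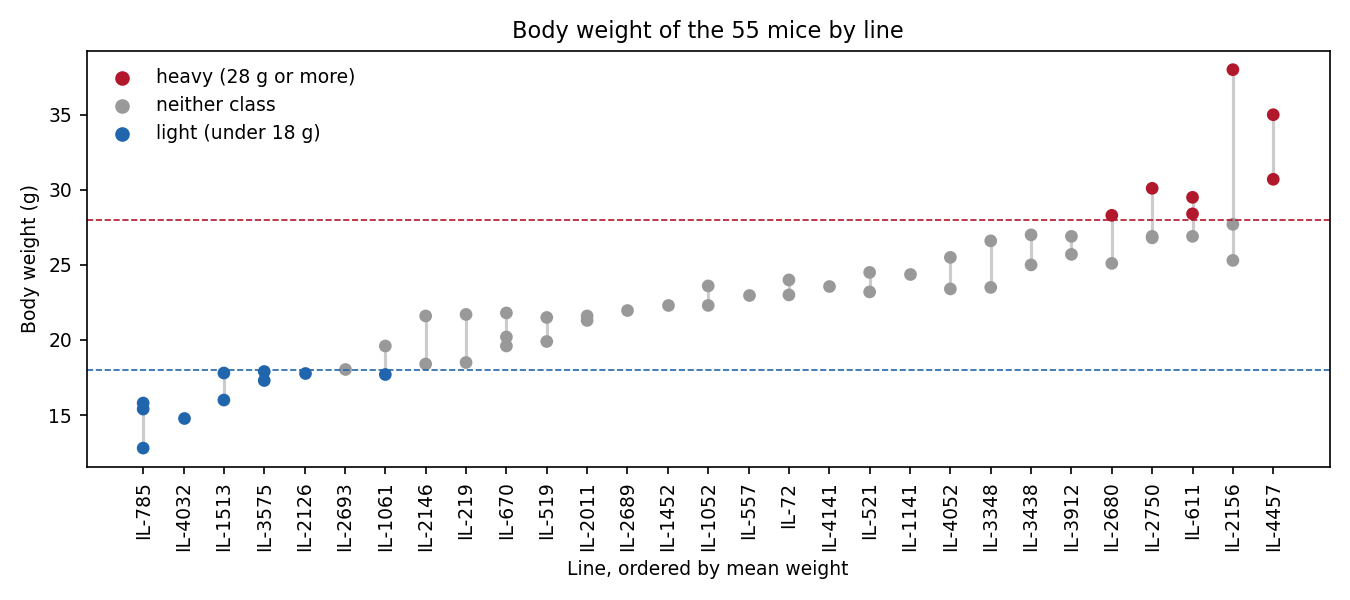
Body weight in grams of each of the 55 mice (points) by line, with the limits of 28 g and 18 g as lines and the heavy and light mice in colour. No line has mice on both sides, and 7 line mates of heavy or light mice lie between the limits.

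0 lines had mice on both sides. Weight and genetic background therefore cannot be told apart in this comparison, and its p-values measure the spread between lines. The mean weight was 31.6 ± 3.96 g (SD, n = 5 lines) on the heavy side and 16.6 ± 1.46 g (SD, n = 6 lines) on the light side, a gap that the limits themselves set. Age was 9.74 ± 1.49 weeks against 8.86 ± 1.04 weeks, a difference within the spread between lines (exact two-sided permutation test over 462 assignments, p = 0.286, where the smallest possible p is 0.00433). Depth was 29.0 ± 1.42 M against 27.1 ± 4.4 M assigned fragments (M, mega) (exact permutation p = 0.459).

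The label of 1 heavy mouse did not match its line. Over the 2000 most variable genes, mice of the same line correlated at 0.666 to 0.915 in the 8 other heavy and light lines with more than 1 mouse. The IL-2750 mouse of 30.1 g correlated at -0.0525 and -0.000443 with its own line mates and at 0.682 with the 22.3 g mouse labelled IL-1052. The other mouse labelled IL-1052, of 23.6 g, correlated at 0.775 and 0.828 with the remaining IL-2750 mice. The library labelled IL-2750, 30.1 g, was kept under its label, and some results are also given without it.

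Body weight is tied to the liver by several known routes. The liver answers growth hormone with insulin-like growth factor 1, turns surplus carbohydrate into fat under insulin, stores or burns that fat, and secretes peptides that act on appetite. Liver tissue also holds Kupffer cells, its resident macrophages, and hepatocytes and macrophages both answer interferons by switching on a shared set of antiviral genes. In bulk tissue, a lower number of cells of a type and less RNA per cell cannot be told apart.

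The library identity as liver was clear. The summed level of 10 hepatocyte markers was 37000 to 75200 FPKM (fragments scaled to transcript length and to the mapped fragments of the library) over the 11 lines, with no marker at 0. 9 of 10 T and NK cell markers stayed under 1 FPKM in all 17 mice. Of 10 markers of the exocrine pancreas, Prss1 and Amy2a5 were listed at 0 in every mouse, and the summed level of the 8 that entered the tests was 360 FPKM in the light line IL-3575 against at most 37.3 FPKM in each heavy line.

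No gene separated the sides after adjustment. Of 11284 genes with a maximum of at least 2 FPKM, 0 passed an adjusted p of 0.05 in limma (0%), and the smallest adjusted p was 0.791. Before adjustment 459 genes (4.07%) had a limma p under 0.05, of which 182 (1.61%) were higher and 277 (2.45%) lower on the heavy side. The quasi-likelihood test of edgeR on summed counts also called 0 genes, with 583 under an unadjusted 0.05, while DESeq2 on the same counts called 62 of 15316 genes. All differences between the sides are on the log2(FPKM + 1) scale, which understates the change of genes near 0, and none of them passed the adjusted test.

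Most genes were slightly lower on the heavy side. The median difference over the 11284 genes was -0.05, and the mean was higher on the heavy side in 4150 genes (36.8%). After quantile normalization the heavy mean was higher in 47.2% of genes, the median was -0.00938, and 272 genes against 204 were higher and lower at an unadjusted 0.05. The excess of lower genes thus depended on the scaling. In 9 genes (0.0798%) every heavy line lay above every light line, and in 15 genes (0.133%) every heavy line lay below. For a gene without a difference, a fraction of 0.00433 of the 462 assignments of lines to sides gives no overlap in either direction. The 9 and 15 genes together were a smaller share than this. A lack of overlap by itself therefore does not set a gene apart.

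Of the 12 genes higher on the heavy side with the smallest p-values, Xaf1, Isg15, Ifitm3, Rtp4 and Gm12250 belong to the interferon response. The promoters of Isg15 and Gm12250 are shown because they hold the sequence of GAAA, any 2 bases (N) and GAAA, searched on both strands (TTTC, any 2 bases and TTTC on the other), which is the core of the element bound by interferon-activated transcription factors. Each is the 250 bases before the transcription start, 5′ to 3′ on the strand of the gene, from RefSeq on GRCm38.p6, with the matches in capitals. Isg15 lies at chr4:156200819-156201068 on the minus strand and Gm12250 at chr11:58183593-58183842 on the plus strand.
Isg15: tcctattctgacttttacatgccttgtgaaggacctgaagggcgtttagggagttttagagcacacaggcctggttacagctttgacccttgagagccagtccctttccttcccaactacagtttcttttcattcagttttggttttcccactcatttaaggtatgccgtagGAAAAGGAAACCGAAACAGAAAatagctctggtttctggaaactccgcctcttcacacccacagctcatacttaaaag
Gm12250: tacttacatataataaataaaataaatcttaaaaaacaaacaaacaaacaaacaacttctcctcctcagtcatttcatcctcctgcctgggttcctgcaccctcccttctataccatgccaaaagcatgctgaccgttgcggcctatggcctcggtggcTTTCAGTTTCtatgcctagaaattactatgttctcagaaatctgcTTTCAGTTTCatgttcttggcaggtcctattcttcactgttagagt

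The 3 matches in Isg15 overlapped one another, and their first bases lay 78 to 66 bases before the start. The 2 matches in Gm12250 began 91 and 46 bases before it. Ifitm3 held 2 matches, both after its start. In windows of 250 bases before to 50 bases after the start, the sequence occurred in 1079 of 27025 promoters (3.99%) and in 298 of the 7575 tested genes with a RefSeq promoter (3.93%). It occurred in 3 of 6 matched genes among the 12 named as higher, and in 0 of 7 matched genes among the 12 named as lower. The 3 were Isg15, Gm12250 and Ifitm3. The promoter of Xaf1 did not hold the sequence, and no RefSeq promoter was found for Rtp4 under its symbol. These are matches of letters and not measured binding sites.

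Isg15, which encodes a ubiquitin-like modifier attached to proteins in antiviral defence, lies at chr4:155573533-155574927 on the minus strand (mm9). It stood at 9.30 FPKM in IL-2156, 30.1 in IL-2680, 17.9 in IL-2750, 30.3 in IL-4457 and 33.7 in IL-611, against a lowest of 2.77, a median of 7.20 and a highest of 13.8 FPKM in the light lines. All heavy lines except IL-2156 lay above the light lines. The difference was 1.57 ± 0.40 (SE, n = 5 and 6 lines, limma adjusted p = 0.998). Line mates outside the limits had 10.9 and 10.2 FPKM in IL-2156, 17.3 in IL-2680, 7.97 and 8.91 in IL-2750 and 30.3 in IL-611. The mate in the light line IL-1061 had 15.8 FPKM.

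Xaf1, an interferon-induced promoter of apoptosis, did not overlap between the sides. Its level was 8.47, 25.3, 7.02, 12.0 and 9.38 FPKM in IL-2156, IL-2680, IL-2750, IL-4457 and IL-611, and 2.50 to 6.67 FPKM with a median of 3.54 in the light lines. Ifitm3, a membrane protein that blocks the entry of viruses, was at 534, 721, 498, 660 and 506 FPKM in the same order, against 308 to 448 FPKM with a median of 416. Ifitm3 also did not overlap, at a smaller difference of 0.55 ± 0.15 against 1.31 ± 0.30 for Xaf1. In line mates outside the limits Xaf1 was at 11.4 and 11.6 FPKM in IL-2156, 12.6 in IL-2680 and 8.76 in IL-611. It was at 3.93 and 4.75 FPKM in IL-2750, and at 8.28 FPKM in the mate of the light line IL-1061, above the lowest heavy line. Ifitm3 was at 635 and 557 FPKM in IL-2156, 497 in IL-2680, 568 in IL-611, 270 and 426 in IL-2750 and 409 in IL-1061. Rtp4, an interferon-induced receptor chaperone, was at 5.29 FPKM in IL-2156 and 9.90 to 22.9 FPKM in the other heavy lines, against at most 7.46 FPKM. Gm12250, annotated as a pseudogene although it carries an interferon-inducible GTPase sequence, differed by 1.46, and reads may be shared with related GTPase genes.

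**Figure D2:**
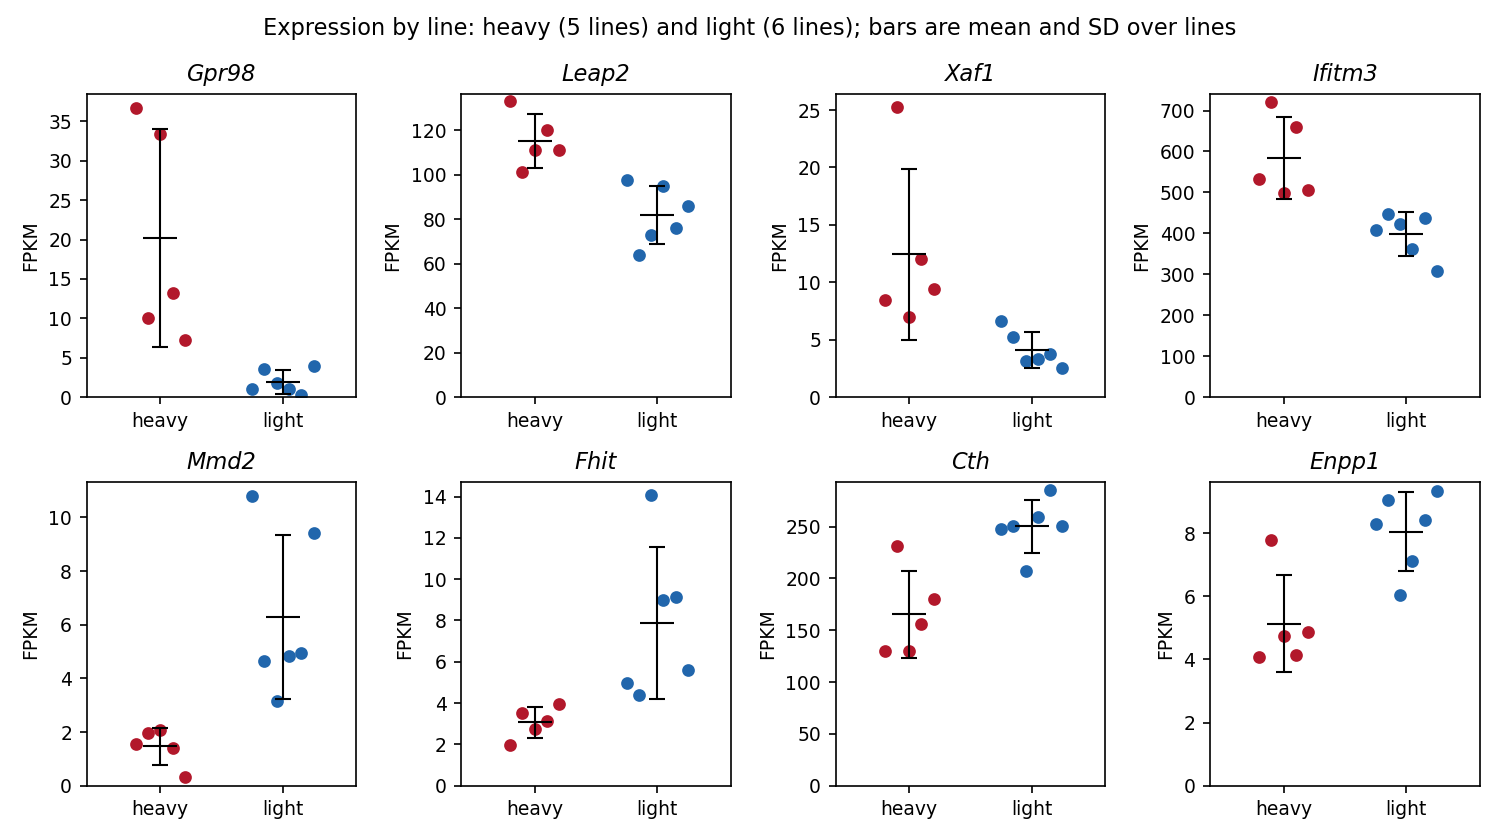
FPKM of 8 named genes by line (points) on the heavy and light sides, with the mean and SD over lines. Gpr98, Leap2, Xaf1 and Ifitm3 lie higher in every heavy line than in any light line, Mmd2 and Fhit lower, and Cth and Enpp1 are lower in the mean with overlapping lines.

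A list of 58 tested interferon-stimulated genes was drawn up after these values had been seen, so its counts describe the data and are no independent support. The heavy mean was higher in 55 of 58 genes and lower in 3, with a median difference of 0.63 beside -0.05 over all genes, and 26 were higher at an unadjusted limma p under 0.05 beside 1.61% of all genes. Irf7, the transcription factor that amplifies the response, is named after its values had been seen and differed by 1.66. Oas1g, a sensor of viral RNA with close paralogs, differed by 0.95. The exceptions Irf1, Trim25 and Tap2 were within 0.07 of 0.

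The summed level of the 58 genes was 1505 FPKM in IL-2156, 2287 in IL-2680, 1467 in IL-2750, 1968 in IL-4457 and 1672 in IL-611. In the light lines it was 817 FPKM in IL-785, 1038 in IL-1513, 1055 in IL-3575, 1221 in IL-4032, 1327 in IL-2126 and 1434 in IL-1061. These sums did not overlap, but Ifitm3, itself named for its difference, held 33.6% of them. Without Ifitm3 the light line IL-1061, at 1026 FPKM, exceeded the heavy lines IL-2156 at 971 and IL-2750 at 969 FPKM. The median deviation of the 58 genes from the mean of the 11 lines also overlapped, at -0.15 in IL-2156 and 0.123 in IL-2750 against 0.256 on the log2 scale in IL-1061. Leaving out 1 line in turn gave 17 to 35 genes under 0.05 and medians of 0.433 without IL-2680 to 0.736 without IL-2156. Without IL-2750 the count was 24 and the median 0.63, and with age as a covariate they were 17 and 0.516.

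Genes of antigen presentation, which interferons also control, were chosen in the same way. Of 19 tested MHC class I and II genes the heavy mean was higher in 18 (36.8% of all genes), 4 at an unadjusted 0.05 (1.61% of all genes), with a median of 0.41. Their summed level overlapped, at 3061 to 5448 FPKM in the heavy and 1894 to 5307 FPKM in the light lines. The light line IL-2126, at 5307 FPKM, lay above every heavy line except IL-2680. H2-K1, a classical class I heavy chain, was at 519, 782, 282, 617 and 580 FPKM in IL-2156, IL-2680, IL-2750, IL-4457 and IL-611, against 84.8 to 338 FPKM with a median of 248 in the light lines. These genes are highly polymorphic between founder strains, and the effect of reads that differ from the reference was not tested.

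Macrophage markers were also higher in the mean. All 11 tested Kupffer cell markers had a higher mean on the heavy side (36.8% of all genes), with a median of 0.65. Of these, 1 was higher at an unadjusted 0.05 (1.61% of all genes). Their summed level was 124 FPKM in IL-2156, 301 in IL-2680, 98.1 in IL-2750, 158 in IL-4457 and 96.8 in IL-611, against 37.2 to 171 FPKM with a median of 87.1 in the light lines. The sides overlapped here. Clec4f, a lectin of Kupffer cells, was highest in IL-2680 with 43.5 FPKM on the heavy side and in IL-3575 on the light side. C1qb, a complement subunit made by macrophages, differed by 0.98. Without IL-2680 the markers stood at 10 higher and 1 lower with a median of 0.414. The light line IL-3575 had a summed marker level of 171 FPKM, above 4 of the 5 heavy lines, and an interferon sum of 1055 FPKM, below all of them (692 FPKM, also below all, without Ifitm3). The part of macrophage content in the interferon result was not tested. Of 5 erythroid markers 4 were higher, with a median of 0.678 and sums of 503 to 2130 FPKM in the heavy against 510 to 1480 FPKM in the light lines. Of 10 endothelial markers 9 were higher, with a median of 0.116 and sums of 43.9 to 85.3 against 33.8 to 82.9 FPKM. Of 5 neutrophil and monocyte markers 2 were higher, with a median of -0.0302 and sums of 3.59 to 14.1 against 1.37 to 19.7 FPKM. The sides overlapped in each of these lists, as they did for the Kupffer cell markers.

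Pira2 and Lilrb3, paired immunoglobulin-like receptors of myeloid cells, were among the 9 genes without overlap and are named after their values had been seen. Pira2 was at 0.645 to 3.05 FPKM in the heavy lines and 0.273 to 0.575 FPKM in the light lines. Lilrb3 was at 0.72 to 2.38 FPKM against 0.19 to 0.56 FPKM. Both are low, and Pira2 has near-identical relatives among which reads can be split. The others above were Gpr98, Gm4070, Xaf1, Leap2, Sh3bgrl, Ifitm3 and Arap2.

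**Figure D3:**
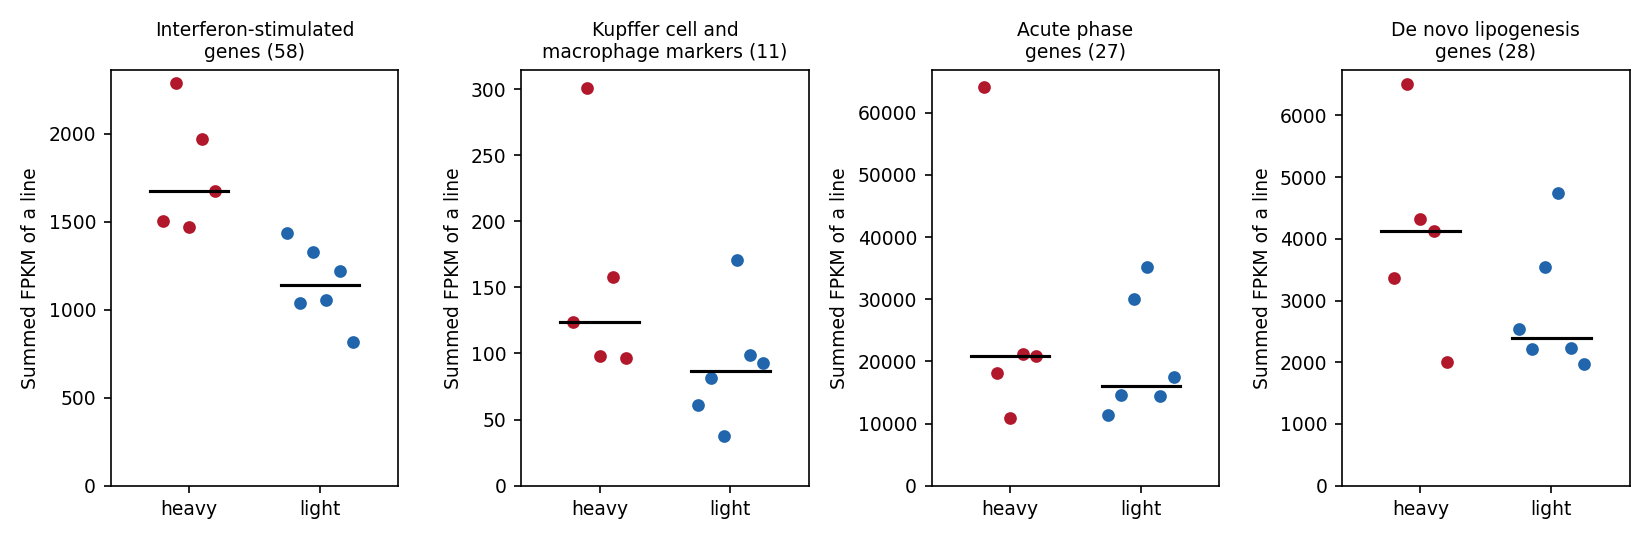
Summed FPKM by line (points) of interferon-stimulated genes, Kupffer cell markers, acute phase genes and de novo lipogenesis genes on the heavy and light sides, with the median as a bar. The sums separate for the interferon-stimulated genes, where they overlap once Ifitm3 is left out, and overlap in the other 3 lists.

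The gene with the smallest p-value was Gpr98, a very large adhesion G protein-coupled receptor best known from sensory hair cells, at chr13:81234067-81772153 on the minus strand (mm9). It stood at 36.7 FPKM in IL-2156, 10.1 in IL-2680, 33.4 in IL-2750, 13.2 in IL-4457 and 7.31 in IL-611, against a lowest of 0.22, a median of 1.41 and a highest of 3.96 FPKM in the light lines. The sides did not overlap, and the difference of 2.84 ± 0.46 (95% interval 1.83 to 3.86, limma adjusted p = 0.791) did not pass.

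Line mates outside the limits did not share the high level of Gpr98 in each case. The IL-2156 mice of 27.7 and 25.3 g had 1.64 and 0.47 FPKM beside 36.7 FPKM in the mouse of 38.0 g. The IL-2680 mouse of 25.1 g, by contrast, had 38.9 FPKM beside 10.1 FPKM in its heavier line mate. The IL-611 mouse of 26.9 g had 4.88 FPKM beside 4.55 and 10.1 FPKM. The IL-2750 mates had 0.12 and 3.71 FPKM beside 33.4 FPKM in the library whose label was in doubt, and leaving out any 1 line gave differences of 2.56 to 3.13. With all mice of each line averaged the difference was 1.98, and with limits of 26 g and 20 g, which gave 8 and 11 lines, it was 1.19. In the 18 lines with no mouse on either side the line means ran from 0.295 to 33.2 FPKM.

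Leap2 encodes a peptide that the liver secretes and that blocks the ghrelin receptor, the receptor of the hunger hormone. It lies at chr11:53235683-53236672 on the minus strand (mm9). Its level was 133, 101, 111, 120 and 111 FPKM in IL-2156, IL-2680, IL-2750, IL-4457 and IL-611, against 64.0 to 97.7 FPKM with a median of 81.2 in the light lines. The sides did not overlap, and the difference was 0.50 ± 0.13 (SE; limma adjusted p = 0.998). The line mates outside the limits were at 82.7 and 101 FPKM in IL-2156, 57.5 FPKM in IL-2680, 72.0 and 99.9 FPKM in IL-2750 and 79.8 FPKM in IL-611, each at or below the lowest heavy line. With all mice of each line the difference was 0.275.

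The remaining genes named as higher had varied roles. Acbd4, an acyl-CoA-binding protein, was at 39.0, 36.4, 37.9, 20.6 and 33.1 FPKM in IL-2156, IL-2680, IL-2750, IL-4457 and IL-611, against 12.2 to 25.4 FPKM. Only IL-4457 fell inside the light range. Fas, the death receptor, was at 7.57 to 15.6 FPKM against 5.28 to 8.06 FPKM. Slc43a3, a carrier of purine bases, was at 4.17 to 5.47 against 2.35 to 4.64 FPKM. Sh3bgrl, a small adaptor-like protein, did not overlap, at 29.8 to 39.6 against 23.9 to 29.5 FPKM. Gm12718 is a processed transcript with no known role, at 1.65 to 8.07 against 0 to 1.91 FPKM.

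Among the genes lower on the heavy side Mmd2 had the smallest p-value. It encodes a membrane protein of the progestin and adipoQ receptor family and lies at chr5:143038319-143084754 on the minus strand (mm9). Its level was 1.55 FPKM in IL-2156, 1.97 in IL-2680, 2.09 in IL-2750, 1.42 in IL-4457 and 0.33 in IL-611, against a lowest of 3.14, a median of 4.88 and a highest of 10.8 FPKM in the light lines. The sides did not overlap, and the difference was -1.50 ± 0.31 (95% interval -2.19 to -0.82, limma adjusted p = 0.998).

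Line mates outside the limits did not share 1 pattern in Mmd2. The IL-2156 mouse of 27.7 g had 9.72 FPKM and that of 25.3 g had 1.81 FPKM. The IL-2680 mouse of 25.1 g had 7.43 FPKM, and the IL-2750 mice of 26.8 and 26.9 g, which differ from the 30.1 g mouse in more than weight, had 5.8 and 4.5 FPKM. In IL-611 the mouse of 26.9 g had 0.12 FPKM, between 0.6 and 0.06 FPKM in its heavier mates. IL-611 was thus low at each weight sampled.

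Several of the genes named as lower encode metabolic enzymes. Cth, cystathionine gamma-lyase of the transsulfuration pathway, was at 130, 231, 130, 156 and 180 FPKM in IL-2156, IL-2680, IL-2750, IL-4457 and IL-611, against 207 to 285 FPKM with a median of 251. Enpp1, a nucleotide pyrophosphatase also known to damp insulin receptor signalling, was at 4.08, 7.79, 4.75, 4.14 and 4.88 FPKM against 6.05 to 9.33 FPKM. In both genes IL-2680 was the heavy line that reached into the light range. Nt5c2, a purine nucleotidase, was likewise at 6.75 FPKM in IL-2680 and 4.22 to 4.72 FPKM in the other heavy lines, against 6.16 to 8.25 FPKM. Dgka, a diacylglycerol kinase, was at 1.01 to 2.43 against 2.13 to 3.84 FPKM.

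Fhit, a hydrolase of diadenosine nucleotides lost in many tumours, did not overlap, at 1.99 to 3.97 FPKM in the heavy and 4.40 to 14.1 FPKM in the light lines. Pabpc4, a poly(A)-binding protein, was at 5.58 to 11.8 against 11.7 to 14.6 FPKM, and Aktip, a vesicle-transport adaptor, at 3.86 to 5.36 against 5.29 to 6.48 FPKM. Hsbp1l1 was at 5.22 FPKM in IL-2750 and 0.98 to 1.69 FPKM in the other heavy lines, against 2.64 to 7.37 FPKM. The high value thus belonged to the library whose label was in doubt. 8430419L09Rik differed by -0.48. Hist1h2bl, a histone H2B gene with near-identical copies, and the pseudogene Gm7666 differed by -1.77 and -1.97, and reads of both can be split between copies. Without IL-2750 the difference went from -1.97 to -1.57 in Gm7666, from -0.522 to -0.39 in Pabpc4 and from -0.476 to -0.379 in 8430419L09Rik. In Hsbp1l1 it widened from -1.1 to -1.39.

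Leaving out any 1 of the 11 lines kept the direction of all 24 named genes. They were chosen for small p-values in the same lines, so this is no independent support. Besides Mmd2 and Fhit, the 15 genes below without overlap were Slc6a8, 2010204K13Rik, Tbc1d19, Ldhb, Tmsb15l, Tppp, Spice1, Tlr12, Tppp3, Fam117a, Cog7, Pmpca and Taf11, which were listed after their values had been seen.

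**Figure D4:**
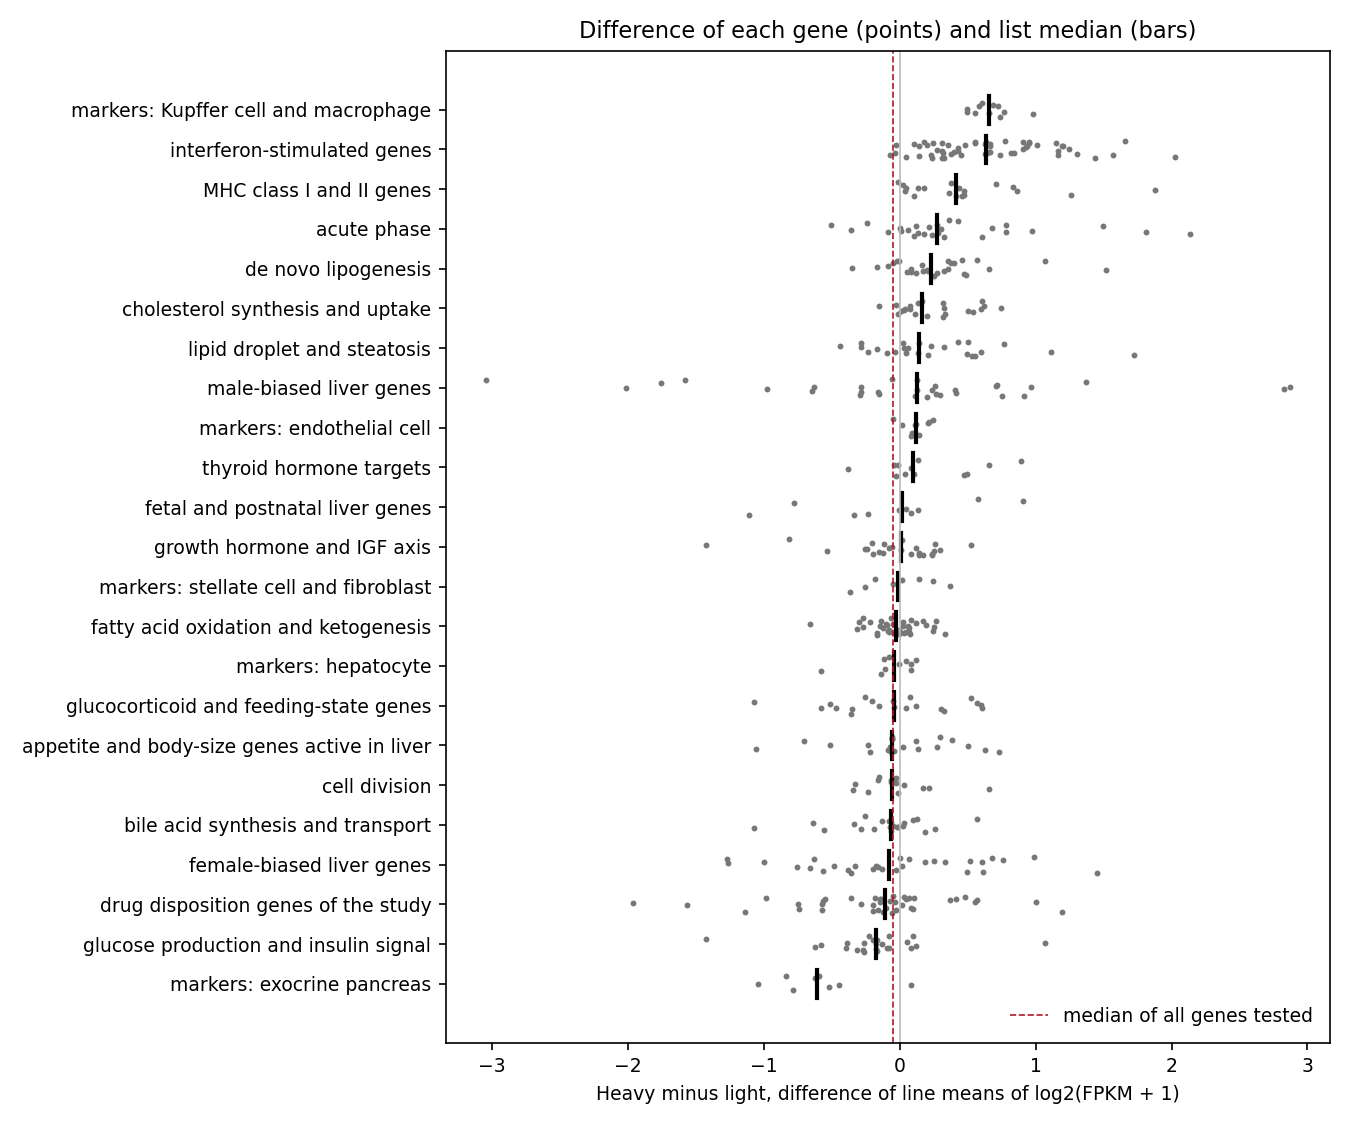
Difference between the heavy and the light side in log2(FPKM + 1) for each tested gene (points) of the gene lists with at least 8 tested members, with the list median as a bar. Interferon-stimulated genes and Kupffer cell markers have medians of 0.632 and 0.654, beside -0.0506 over all genes, and no point passed the adjusted test.

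The growth axis did not differ in a common direction. Of 25 tested genes of growth hormone and insulin-like growth factor signalling, 13 were higher and 12 lower on the heavy side, 0 at an unadjusted 0.05 (4.07% of all genes), with a median of 0.00913. Here and in the lists below, counts of genes higher on the heavy side stand beside 36.8% of all genes. Igf1 itself, named after its values had been seen, was at 190, 372, 228, 427 and 261 FPKM in IL-2156, IL-2680, IL-2750, IL-4457 and IL-611, against 185 to 466 FPKM with a median of 253. The ranges coincided, and the difference of 0.08 had a 95% interval of -0.52 to 0.68. Igfbp2, a binding protein of the growth factors, was at 56.1 to 165 FPKM in the heavy and 100 to 398 FPKM in the light lines, a difference of -0.81 (95% interval -1.64 to 0.01). Ghr, the growth hormone receptor, differed by 0.24.

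Genes that growth hormone pulses make sex-biased were mixed. Of 31 male-biased genes 18 were higher, with a median of 0.13, and of 30 female-biased genes 14 were higher, with a median of -0.0799. Mup12, a major urinary protein, was at 127 to 2208 FPKM in the heavy lines and 110 to 28799 FPKM in the light lines, and reads of this family can be split among copies. C4a and Cyp2c69 were lower on the heavy side and turned to 0.181 and 0.14 with limits of 26 g and 20 g.

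Fat-synthesis genes tended higher with wide spread. Of 28 genes of de novo lipogenesis 22 were higher (36.8% of all genes) and 6 lower, with a median of 0.227. At an unadjusted 0.05 it was 2 and 1 (1.61% and 2.45% of all genes). With age as a covariate the split was 17 and 11 and the median 0.0887. Scd1, the desaturase that makes oleate, was at 1179, 2269, 1492, 1109 and 427 FPKM in IL-2156, IL-2680, IL-2750, IL-4457 and IL-611, against 127 to 2333 FPKM with a median of 377. The light line IL-3575 was the highest of all 11, and the difference was 1.52 ± 0.68. Dgat1, which closes triglyceride synthesis, went the other way, at 6.38 to 8.4 FPKM in the heavy lines against a lowest of 6.96 and a median of 9.14 FPKM in the light lines.

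Of 25 lipid droplet genes 18 were higher (36.8% of all genes) and 7 lower, with a median of 0.138. At an unadjusted 0.05 it was 1 and 1 (1.61% and 2.45% of all genes). Their summed level was 3245 FPKM in IL-2156, 2146 in IL-2680 and 1986 in IL-4457, but 809 in IL-2750 and 722 in IL-611, beside 609 to 903 FPKM in the light lines. Apoa4, an apolipoprotein chosen for mention after its values were seen, held 46.7% of this sum, at 2162, 1425, 227, 1367 and 42.0 FPKM in IL-2156, IL-2680, IL-2750, IL-4457 and IL-611 against 58.1 to 265 FPKM. Without Apoa4 the sums were 1083, 721, 582, 620 and 680 FPKM in the same order against 475 to 657 FPKM, so that the high sum of IL-4457 belonged to that gene. Fabp2, a fatty acid binding protein, was at 75.8 to 116 FPKM against 45.6 to 93.8 FPKM. Osbpl3, a lipid transfer protein, was below 1 FPKM in all lines and lower on the heavy side by 0.44.

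The other metabolic lists held no called gene. Of 23 genes of cholesterol synthesis and uptake 20 were higher, with a median of 0.163. Fdps, which makes farnesyl diphosphate, was at 158 to 302 against 95.1 to 281 FPKM. Of 38 genes of fatty acid oxidation 17 were higher and 21 lower, with a median of -0.0283. Of 25 genes of glucose production and insulin signalling 5 were higher and 20 lower, with a median of -0.176. Of 23 bile acid genes 7 were higher, with a median of -0.0649.

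The acute phase list rested on 1 line. Of 27 genes 23 were higher and 4 lower, with a median of 0.275. Without IL-2156 the split was 13 and 14 and the median -0.0199. Saa3, a serum amyloid A gene with close paralogs, was at 185 FPKM in IL-2156 and 5.76 to 12.6 FPKM in the other heavy lines, against 2.16 to 8.81 FPKM. Lcn2, the iron-sequestering lipocalin, named after its values had been seen, was at 1669 FPKM in IL-2156 and at most 28.5 FPKM in the other heavy lines.

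Of 40 drug disposition genes, which the study chose on these samples, 14 were higher (36.8% of all genes) and 26 lower, with a median of -0.111. At an unadjusted 0.05, 3 were higher (1.61% of all genes). Siae, a sialic acid esterase, was at 7.54 to 14.7 FPKM against 4.96 to 10.2 FPKM, and Cyp2a22, a cytochrome P450 with close relatives, at 3.92 to 17.8 against 1.94 to 10.3 FPKM. Of 21 liver genes tied to appetite or body size 9 were higher and 12 lower, with a median of -0.0544. Inhbc, an activin subunit made by hepatocytes, was at 31.6, 35.5, 31.4, 18.5 and 32.6 FPKM in IL-2156, IL-2680, IL-2750, IL-4457 and IL-611. In the light lines it was 15.9 to 18.2 FPKM apart from 31.8 FPKM in IL-2126. Thus 1 line on each side lay with the other side.

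The smaller lists were also without a called gene. Of 12 thyroid hormone targets 8 were higher, with a median of 0.0939. Of 15 cell division genes 4 were higher and 11 lower, with a median of -0.0602. Rrm1, a subunit of ribonucleotide reductase, was at 1.63 to 2.05 against 1.71 to 2.98 FPKM. Of 20 glucocorticoid and feeding-state genes 9 were higher, with a median of -0.0453, and of 10 fetal liver genes 5 were higher, with a median of 0.0174.

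The 18 lines with no mouse on either side gave the same genes a look in other animals. The slope of the line mean on the mean body weight was fitted over these lines, which had 31 mice. 0 of 11284 genes passed (0%), with a smallest limma adjusted p of 0.587. Before adjustment 349 genes (3.09%) had positive and 108 (0.957%) negative slopes with p under 0.05, and 64.1% of all slopes were positive. After quantile normalization these were 213 and 224 genes, and 51.2% were positive. By its label IL-1052 was among these lines. Its 2 mice correlated at -0.0932, and that of 22.3 g resembled the heavy mouse labelled IL-2750. Without IL-1052, 0 genes passed, and 333 and 94 genes had positive and negative slopes at an unadjusted limma p under 0.05.

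Of the 12 genes named as higher on the heavy side 7 had a positive slope in the other lines, and of the 12 named as lower 8 had a negative slope. Over all genes the shares were 69.4% of those higher and 38.8% of those lower on the heavy side. Mmd2 was the only gene named in both comparisons, which share no mouse and, by the labels alone, no line. Its slope was -0.31 per g in log2(FPKM + 1) (limma adjusted p = 0.996). Its line means ran from 0.435 to 30.2 FPKM with a median of 3.31, and the highest was IL-2693 with 1 mouse of 18.1 g. Without IL-2693 the slope was -0.201 per g.

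The interferon-stimulated genes had no common direction in these lines, and the difference from the comparison of the sides was not tested. Of the 58 genes 29 had a positive and 29 a negative slope, 1 at an unadjusted 0.05, with a median of 0.000133 per g. The Kupffer cell markers had 11 positive slopes of 11, beside 64.1% of all genes, 0 at an unadjusted 0.05, with a median of 0.0821 per g. Stellate cell markers had 8 positive slopes of 8 (4 at an unadjusted 0.05, median 0.0884) and B cell markers 4 of 4 (3, median 0.0865). Over all genes 3.09% had a positive slope at that level. It was 5 of 5 for neutrophils and monocytes, 5 of 5 for erythroid cells, 6 of 6 for adipocytes and 8 of 8 for the exocrine pancreas. Other lists were mixed, with 9 of 10 for endothelial cells, 6 of 10 for hepatocytes and 3 of 4 for cholangiocytes. The 1 tested T and NK cell marker had a negative slope. Of the 38 fatty acid oxidation genes 36 had a positive slope, with a median of 0.0298 per g beside 0.00921 over all genes. The other genes named by their slopes were Slc22a28, an organic anion transporter, at 0.256 per g, Heatr3 at 0.0715, Commd8 at 0.089 and the splicing factor Txnl4a at 0.109 per g. With negative slopes they were the carotenoid-cleaving Bcmo1 at -0.0661, Flywch1 at -0.0572 and the glucuronosyltransferase Ugt1a6b, which shares exons with its neighbours, at -0.156 per g. Between the sides Slc22a28, Heatr3 and Txnl4a went the other way, with differences of -0.235, -0.17 and -0.192. So did Ugt1a6b and Flywch1, at 0.0812 and 0.0522. Commd8 and Bcmo1 kept the sign of their slopes, at 0.152 and -0.125.

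Mice of an inbred line share nearly all of their genotype, so weight was also compared within lines, where IL-1052 and IL-2750 are exceptions because their labelled mice were unlike one another. The slope on weight was fitted with line as a factor over the 47 mice of 21 lines that had at least 2 mice, and these include heavy and light mice. In this fit 27 genes (0.239%) passed a limma adjusted p of 0.05, 7 rising (0.062%) and 20 falling (0.177%) with weight. The 38.0, 27.7 and 25.3 g mice of IL-2156 held 60.4% of the within-line variation in weight. Without IL-1052 and IL-2750, 47 genes passed, 26 of them among the 27. Without IL-2156, 0 genes passed, and 493 and 140 genes had positive and negative slopes at an unadjusted 0.05. The slopes of all 27 kept their sign. They were chosen in a fit that included the mice of the other lines, so this is no independent support.

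**Figure D5:**
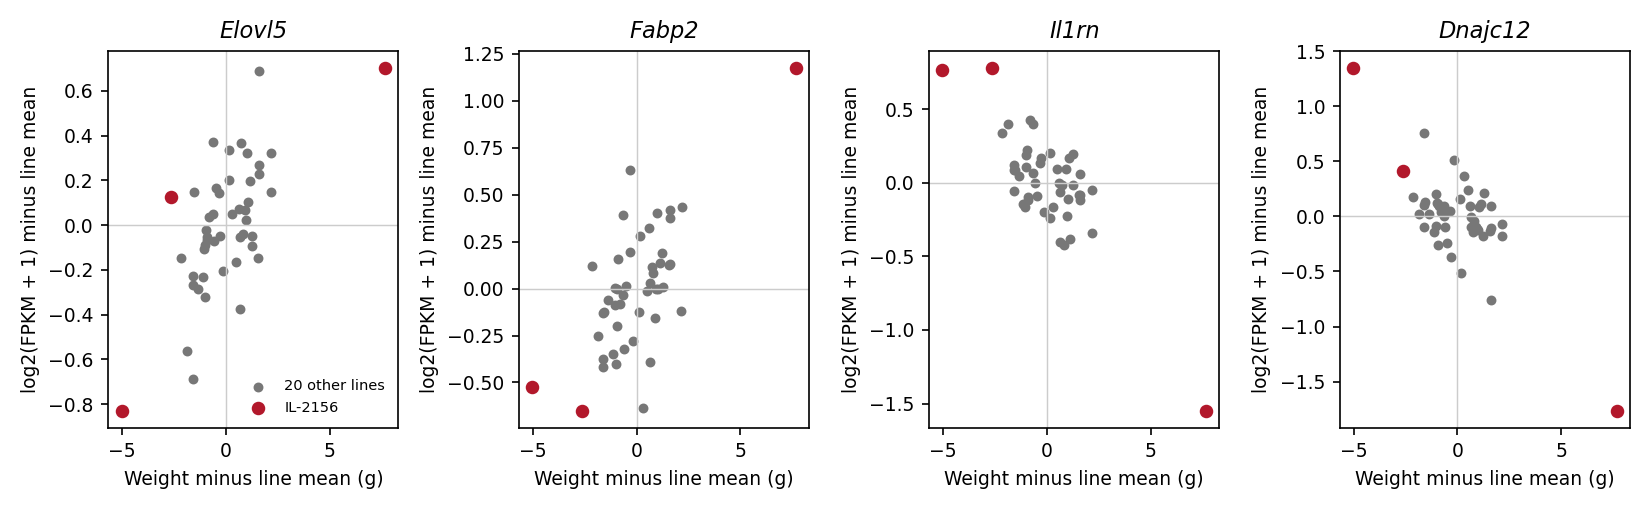
Deviation of log2(FPKM + 1) from the line mean against the deviation of body weight from the line mean in grams, for each mouse of 21 lines, in Elovl5, Fabp2, Il1rn and Dnajc12. The 3 mice of IL-2156 (red) span the weight axis, and the mice of the other 20 lines (grey) lie near its centre.

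Of the 7 rising genes, 3 act on fatty acids or glycerides. Elovl5, which elongates polyunsaturated fatty acids, rose by 0.109 ± 0.0235 per g (SE, 47 mice; limma adjusted p = 0.0374). It was at 236 FPKM in the 38.0 g mouse of IL-2156, 158 in the 27.7 g mouse and 81.0 in the 25.3 g mouse, and the heaviest mouse exceeded the lightest in 15 of 21 lines. Its slope without IL-2156 was 0.121 per g. Fabp2 was at 116 FPKM in the 38.0 g mouse and at most 35.1 FPKM in its mates, higher in the heaviest mouse in 15 of 21 lines, with slopes of 0.126 per g and 0.0944 without IL-2156. Mogat1, a monoacylglycerol acyltransferase, was at 5.86, 0.26 and 0.29 FPKM, but the heaviest mouse exceeded the lightest in only 11 of 21 lines.

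The other rising genes were Col27a1, a collagen, Ola1, an ATPase, Ces2e, a carboxylesterase, and the pseudogene Gm8116. Ola1 was higher in the heaviest mouse in 18 of 21 lines and Col27a1 in 16. Col27a1 had slopes of 0.0957 per g with IL-2156 and 0.105 without it. Gm8116 was at 2.55, 0 and 0 FPKM in IL-2156 by falling weight, and its reads may belong to a parent gene.

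Il1rn, the antagonist of the interleukin 1 receptor, fell by 0.149 per g (limma adjusted p = 0.00243). It was at 1.47 FPKM in the 38.0 g mouse of IL-2156 and at 11.4 and 11.3 FPKM in its mates, against at most 3.15 FPKM in the 52 mice outside that line. Cd14, the coreceptor of bacterial lipopolysaccharide, was at 0.77, 18.4 and 8.31 FPKM in the same order, and Prtn3, a neutrophil protease, at 4.97, 46.2 and 44.6 FPKM. In all 3 genes the lighter IL-2156 mice stood above the 52 mice outside that line, which reached 5.12 FPKM for Cd14 and 26.1 FPKM for Prtn3.

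Rnase4, a secreted ribonuclease, was at 683, 1363 and 1432 FPKM in IL-2156, lower in the heaviest mouse in 15 of 21 lines, with slopes of -0.0908 and, without IL-2156, -0.0956 per g. Its decline was therefore as steep without that line. Dnajc12, a co-chaperone of aromatic amino acid hydroxylases, was at 8.60, 42.5 and 82.2 FPKM, and its slope went from -0.167 to -0.0632 per g. Plscr1, a phospholipid scramblase, and Il17ra, the interleukin 17 receptor, went from -0.074 and -0.0798 to -0.0248 and -0.0262 per g. The rest were 9530077C05Rik, the citrate carrier Slc13a5, Apol10b, Pdia5, Slc37a1, the vasopressin receptor Avpr1a, Ptpn1, Alpk1, BC046404, Rpap3, Chi3l1, Bbs9 and Icam1.

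Gene lists moved with IL-2156 to different degrees. In the within-line fit 27 of 28 lipogenesis genes had a positive slope, 10 at an unadjusted 0.05 (3.62% of all genes) and 1 called, with a median of 0.0418 per g. Without IL-2156 it was 26 of 28, 12 at an unadjusted 0.05, and the median was 0.104 per g. Of 38 fatty acid oxidation genes 36 had a positive slope, but 17 without IL-2156. Of 27 acute phase genes 26 had a negative slope, 9 at an unadjusted 0.05 (4.37% of all genes), and without IL-2156 it was 21 and 0. All 5 tested neutrophil and monocyte markers and all 11 Kupffer cell markers had negative slopes, with medians of -0.11 and -0.0727 per g, and 2 and 8 of them without IL-2156. The part of these cells in the called genes was not tested. Of the 58 interferon-stimulated genes 21 had a positive slope, where 50.2% of all genes did, and 37 a negative slope, with a median of -0.00678 per g.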

How the data were processed

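The authors aligned paired reads of 55 livers with RSEM 1.2.18 and Bowtie 2 to mm9 transcripts and deposited, per gene, expected counts, TPM and FPKM values. FPKM was used for the main tests, TPM and rounded expected counts for alternatives, and the deposited isoform tables were not used. Assigned fragments per mouse were 20.5 to 34.0 M. 37205 of 37620 genes were named from GENCODE vM1.

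Sides followed the weight label. Line means of log2(FPKM + 1) of 11284 genes with a maximum of at least 2 FPKM were compared with limma 3.58.1 (R 4.3.3, trend, Benjamini-Hochberg adjustment over all genes). Slopes on weight used line means of 18 other lines, and 47 mice with line as a factor. edgeR 4.0.16 and DESeq2 1.42.0 ran on counts. Named genes were the 12 with the smallest p in each direction with a mean of at least 2 FPKM, 4 for each slope, all called list members and otherwise the 2 with the smallest p. Some further genes, among them Irf7 and Lcn2, were named outside this rule after their values had been seen. Members and lists were chosen with earlier results of these data known. Mice of a line are separate animals. RSEM was run with default settings, which do not use strand, so reads of a gene and an overlapping antisense gene cannot be told apart.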

Additional observations from a re-analysis of the deposited data

Results flagged for a closer look

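Within a side, 11 of 122 groups of lines (58 genes on 2 sides, and weight, age and depth) held 1 line far from the others, where chance gives about 1 in 20. On the heavy side IL-2680 was high in Nt5c2 with 6.75 FPKM against 4.22 to 4.72, in Enpp1 with 7.79 against 4.08 to 4.88 and in Dgat1 with 8.4 against 6.38 to 6.8. IL-4457 was low in Acbd4 with 20.6 FPKM against 33.1 to 39.0 and in Inhbc with 18.5 against 31.4 to 35.5. IL-2156 was high in Saa3 with 185 FPKM against 5.76 to 12.6. The library labelled IL-2750, whose label was in doubt, was high in Hsbp1l1 with 5.22 FPKM against 0.98 to 1.69. On the light side IL-2126 was low in Acox2, a peroxisomal oxidase of bile acid synthesis, with 17.3 FPKM against 54.1 to 69.3, high in Inhbc with 31.8 against 15.9 to 18.2, and the oldest line at 10.9 weeks against 8.1 to 9.0. IL-785 was low in H2-K1 with 84.8 FPKM against 231 to 338.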

How the results depend on the processing

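Between the sides 0 genes were called under every alternative fit and after leaving out any 1 line, except with DESeq2, which called 62. In the other lines 1 gene was called without the expression minimum. Within lines the 27 calls became 9 with a pseudocount of 0.1, 10 with TPM, 77 without the expression minimum, 47 without IL-1052 and IL-2750, 12 with edgeR and 0 without IL-2156. Leaving out each line in turn gave 0 to 33 calls, with 13 without IL-3438, 13 without IL-611 and 17 without IL-2146. The cause was not tested. Directions were followed for the genes named by the smallest p, apart from cell type markers. With limits of 26 g and 20 g, C4a and Cyp2c69 changed direction to 0.181 and 0.14. No other gene followed in this way changed direction under an alternative that was run. Genes named for other reasons were not followed. No paired analysis was possible because the labels carry no replicate numbers and no line has mice on both sides. The alternatives that leave out each line in turn from the slopes, and edgeR within lines, were chosen after seeing the data, as were list sums without their most abundant gene. DESeq2 called 14 of the genes followed in this way. It also called Pira2, Lilrb3, Apoa4, Tlr12 and Ldhb, which were named for other reasons. Among the followed genes called within lines, 33 values lost their call under an alternative. Of the list medians, 703 stayed within the spread between lines and 21 moved by more. The part of sequencing depth in the error of the line means was not tested.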
